A study of Mus musculus with 2 samples.

Results

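The 10 genes described here, Fos, Fosb, Jun, Junb, Jund, Atf3, Egr1, Nr4a1, Dusp1 and Ier2, were taken by name as a set of immediate early and AP-1 genes. They are 10 of the 32285 genes in the count matrices, and each had UMIs (unique molecular identifiers, single counted transcripts) in both libraries. Their levels were read in gated immune cell types of liver tumors as a guide to cell activation and tissue handling. Both libraries held live CD45+ cells, the marker of leukocytes, sorted from tumors of a lenvatinib-resistant mouse model of hepatocellular carcinoma. Tumors were raised in young adult male wild-type C57BL/6 J mice by hydrodynamic tail vein injection of plasmids carrying human MYC, a guide against Trp53 and sleeping beauty transposase, so that the genetic changes are in transfected liver cells and not in the immune cells measured. All mice were given lenvatinib, a multikinase inhibitor, until tumors grew back. One group then stayed on lenvatinib, and the combo group was given lenvatinib and palbociclib, an inhibitor of CDK4 and CDK6. There was 1 library per group, and the number of mice behind each was not given in the sources used here, so treatment and library cannot be told apart and no test between groups was possible.

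Immediate early genes are switched on within minutes of a signal, without new protein synthesis, by kinase cascades that act on transcription factors already bound at their promoters. FOS and JUN proteins pair through leucine zippers to form AP-1, which drives later genes in activated lymphocytes and myeloid cells, and DUSP1 dephosphorylates the kinases that started the response. The same genes are known to be induced by enzymatic dissociation of solid tissue, and these tumors were digested with collagenase and DNase in 4 rounds before the sort.

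RefSeq promoter windows, 250 bases before to 50 after the start on GRCm38.p6 (mm10), were found for 8 of the 10 genes, and not for Egr1 and Ier2. The letters TGACG, the core of the cyclic AMP response element bound by CREB and ATF proteins, stood on either strand in 6 of these 8 windows, those of Fos, Fosb, Junb, Atf3, Nr4a1 and Dusp1, and in 20.8% of all 32851 windows. The full palindrome TGACGTCA, which holds TGACG on both strands, stood in the Dusp1 window and in 1.79% of all windows. The AP-1 letters TGANTCA stood in none of the 8 and in 7.81% of all windows, TATAAA in those of Fos and Junb and in 13.6% of all, and the CArG box bound by serum response factor in none and in 1.63% of all. A match is a string of letters and not a measured binding site, and its absence says only that the letters are not in these windows. The 150 bases before the RefSeq start are shown for the founding FOS and JUN genes and for Junb and Nr4a1, whose pooled levels went opposite ways in lymphocytes, with TGACG or its complement in capitals. The stretches lie at chr12:85473740-85473889 (plus strand, Fos), chr4:95052223-95052372 (minus strand, Jun), chr8:84978749-84978898 (minus strand, Junb) and chr15:101266696-101266845 (plus strand, Nr4a1). The first 3 lie upstream of the GENCODE gene and the Nr4a1 stretch lies in an intron of a longer GENCODE model.
Fos: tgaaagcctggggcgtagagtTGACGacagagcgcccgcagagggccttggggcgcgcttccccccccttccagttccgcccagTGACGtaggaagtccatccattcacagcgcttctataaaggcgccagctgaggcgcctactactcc
Jun: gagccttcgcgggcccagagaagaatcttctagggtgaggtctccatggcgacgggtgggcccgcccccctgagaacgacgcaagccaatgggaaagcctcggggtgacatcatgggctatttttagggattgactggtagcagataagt
Junb: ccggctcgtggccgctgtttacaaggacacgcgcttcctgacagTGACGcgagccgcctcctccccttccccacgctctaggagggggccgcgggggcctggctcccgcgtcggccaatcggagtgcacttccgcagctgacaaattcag
Nr4a1: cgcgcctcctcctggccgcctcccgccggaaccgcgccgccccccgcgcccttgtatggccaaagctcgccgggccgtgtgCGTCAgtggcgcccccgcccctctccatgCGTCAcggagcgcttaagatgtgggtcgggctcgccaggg

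After cells with over 6000 genes or over 25% mitochondrial UMIs were removed, 14201 lenvatinib cells and 11613 combo cells remained, with 95123833 and 90165246 UMIs and medians of 5541 and 5754 UMIs per cell. A cell was gated when it held a UMI of exactly 1 of 6 genes: Cd3e (T), Ncr1 (NK), Cd79a (B), Csf1r (monocyte or macrophage, written Mo/Mac), Csf3r (neutrophil) and Flt3 (dendritic). The lenvatinib and combo libraries gave 5173 and 3795 T cells, 2509 and 981 NK cells, 535 and 604 B cells, 192 and 432 Mo/Mac cells, 681 and 1468 neutrophils, and 249 and 217 dendritic cells. Markers that did not set the gates were present at 10 or more CPM (UMIs per 1000000 UMIs of the type) for every list in its own type. Under combo, however, the neutrophil list summed to more than the type's own list in NK (7129 against 5121), B (10323 against 1254), Mo/Mac (18331 against 12069) and dendritic cells (3956 against 964 CPM), with the granule genes S100a8 and S100a9 making up 6983 of the 7129 in NK cells. In B-gated cells under lenvatinib the erythroid genes Hba-a1 and Hbb-bs summed to 1798 CPM, against 4.78 under combo. With hemoglobin, mitochondrial and ribosomal protein genes left out of the total, the combo to lenvatinib ratio of the 10 genes' summed level in B cells was 1.27. It was 1.26 with them in. Any other part of the erythroid RNA in the results was not tested. For neutrophil RNA in T, NK, B and dendritic cells an estimate in proportion to S100a8 and S100a9 is given with the mitochondrial bins. No estimate was made for Mo/Mac cells, where these genes held 0.230% of UMIs under lenvatinib and 1.77% under combo. The 2 libraries shared 49 cell barcodes.

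Levels are CPM, the UMIs of a gene per 1000000 UMIs of all genes, summed over the cells of a type, with exact Poisson 95% intervals that cover counting error only. The summed level of the 10 genes was higher under combo in the 3 lymphocyte types and lower in both phagocyte types. In T cells it was 5282 under lenvatinib and 6807 under combo, a ratio of 1.29 (interval 1.28 to 1.30). In NK cells it was 6239 and 7502 (1.20, 1.19 to 1.22), and in B cells 5583 and 7052 (1.26, 1.23 to 1.30). These 3 types were thus all above 1 by more than counting error. In Mo/Mac cells the sum was 9415 and 6211 (0.660, 0.639 to 0.682), and in neutrophils 12833 and 7338 (0.572, 0.561 to 0.582). The neutrophil ratio was closer to 1 among cells of like depth, at 0.858 to 0.920 within tertiles of UMIs per cell. Dendritic cells, at 4529.6 and 4598, had a ratio of 1.02 whose interval of 0.980 to 1.05 held 1. This pooled value covers opposite directions by depth. The ratio was 0.883 (0.823 to 0.948) in the middle tertile of UMIs per cell and 1.17 (1.12 to 1.23) in the highest. In the lowest it was 0.953, with an interval that held 1. The gap between the highest and lowest type was 2.83-fold under lenvatinib, where neutrophils were highest and dendritic cells lowest. Under combo it was 1.63-fold, with NK cells highest and dendritic cells again lowest.

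**Figure D1:**
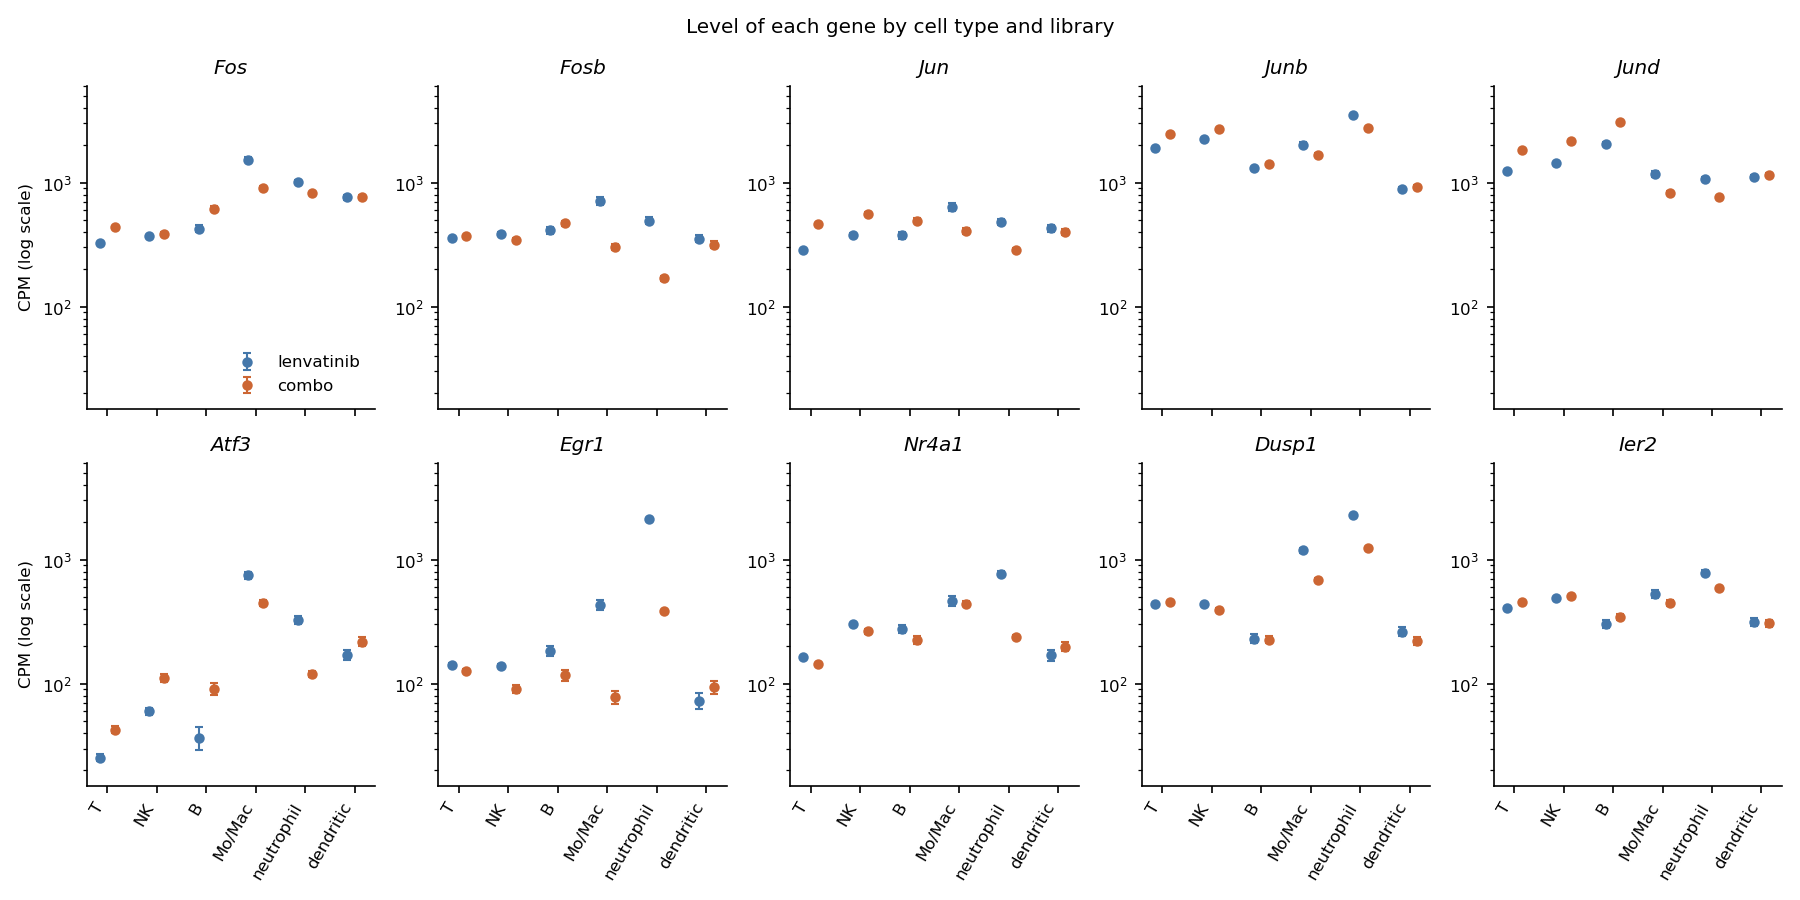
Each panel plots 1 gene, with the 6 gated types on the x axis and CPM on a log y axis; points are lenvatinib (blue) and combo (orange), and bars are exact Poisson 95% intervals (counting error only). Egr1 in neutrophils was 2112 under lenvatinib and 384 under combo, while Jund in T, NK and B cells was higher under combo.

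Of the 60 pairs of gene and type, 46 had a ratio whose counting interval left out 1. In T cells 7 of the 10 genes were above 1, 2 below and 1 not distinguished, in NK cells 4, 4 and 2, and in B cells 6, 2 and 2. In Mo/Mac cells 9 were below 1 and 1 was not distinguished, in neutrophils all 10 were below, and in dendritic cells 1 was above, 1 below and 8 not distinguished. The direction of 11 of the 46 turned under at least 1 of 8 other ways of gating, filtering or scaling. The median gene also moved. The median log2 ratio of all genes tested was -0.18 in T, -0.13 in NK, -0.43 in B, -0.16 in Mo/Mac, -0.53 in neutrophils and -0.08 in dendritic cells. Relative to that median the summed level was higher in T, NK, B and dendritic cells by 0.54, 0.40, 0.77 and 0.10 on the log2 scale, and lower in Mo/Mac cells and neutrophils by -0.44 and -0.27. Neutrophil RNA also differed in composition: S100a8 and S100a9 held 11.0% of neutrophil UMIs under lenvatinib and 24.0% under combo, and with neutrophil marker and granule genes left out of the total the summed ratio was 0.694.

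Past a fixed 2-fold difference the set was sparse in lymphocytes. No member reached 2-fold in T cells, where 0.633% of 7426 genes tested were higher and 1.58% lower, nor in NK cells, where 1.01% were higher and 1.16% lower, nor in dendritic cells, where 1.65% were higher and 2.76% lower. In B cells 1 member, Atf3, was at least 2-fold higher, against 1.37% of genes tested, and none lower, against 11.9%. In Mo/Mac cells none was higher, against 2.42%, and 2 of 10, Fosb and Egr1, were lower, against 7.77%. In neutrophils none was higher, against 1.62%, and 4 of 10, Fosb, Atf3, Egr1 and Nr4a1, were lower, against 18.2%. These counts pool cells of every depth. In neutrophils only Egr1 was at least 2-fold lower in every tertile of UMIs per cell (0.348 to 0.413). From the lowest to the highest tertile Atf3 was at 0.784, 0.616 and 0.442, Nr4a1 at 0.575, 0.444 and 0.591, and Fosb at 0.777, 0.915 and 0.202. In the lowest Mo/Mac tertile neither Fosb (1.03) nor Egr1 (0.677) was 2-fold lower.

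**Figure D2:**
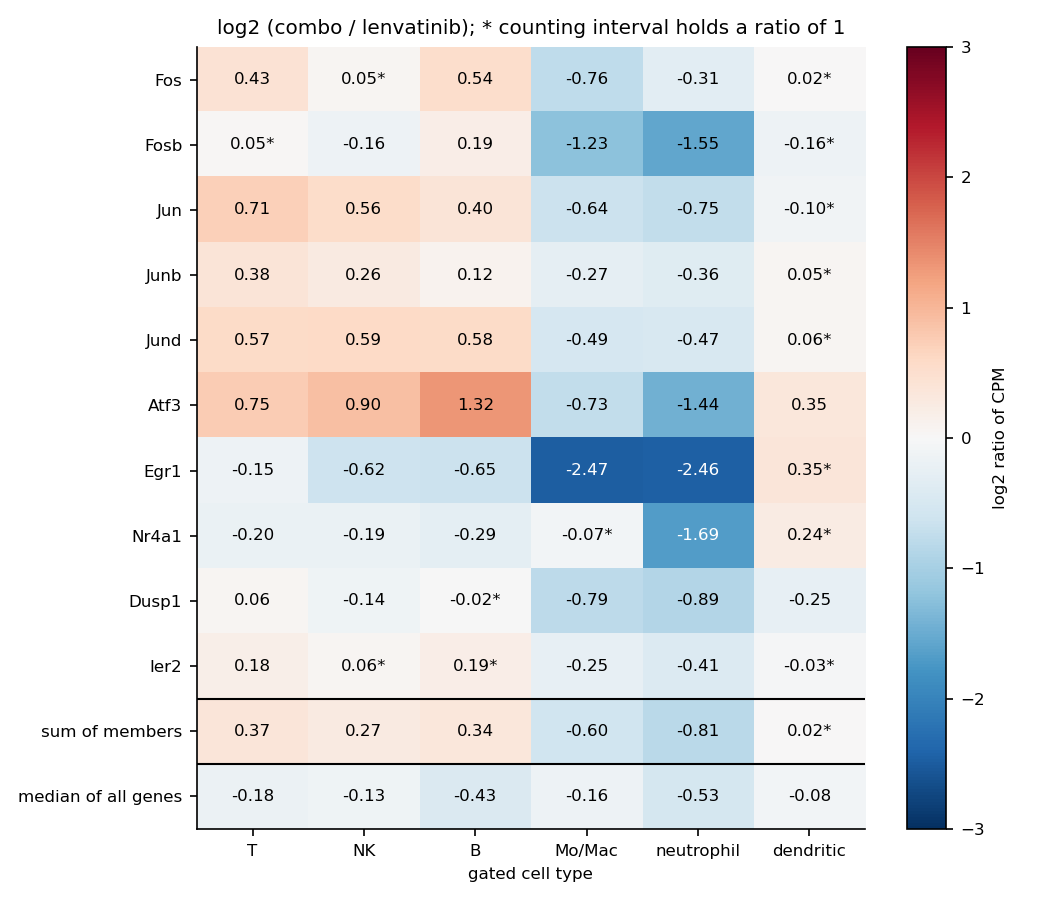
The heat map gives the log2 ratio of combo to lenvatinib for each gene (rows) and gated type (columns), red above 0 and blue below, with an asterisk where the counting interval held a ratio of 1; the bottom rows give the sum and the median of all genes tested. Egr1 is lowest in Mo/Mac cells (-2.47) and neutrophils (-2.46), and Atf3 in B cells is the highest (1.32).

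Fos and Fosb encode the FOS partners of AP-1, which cannot pair with themselves and need a JUN protein. Fos was at 324 and 438 CPM in lenvatinib and combo T cells, a ratio of 1.35 (1.30 to 1.40), and at 424 and 616 in B cells, a ratio of 1.45 (1.31 to 1.61). NK cells, at 370 and 383, were not distinguished. It was highest in Mo/Mac cells in both libraries, at 1530.4 and 901. In neutrophils it was 1014 and 817 (0.806, 0.758 to 0.857), a direction that turned to 0.22 on the log2 scale when libraries were scaled to the median gene. Fosb was at 356 and 368 in T cells, which was not distinguished, and at 388 and 347 in NK cells. Its pooled ratios were lowest in the phagocytes, with 707 and 302 in Mo/Mac cells (0.427, 0.374 to 0.488) and 494 and 168 in neutrophils (0.341, 0.307 to 0.379). These rested mostly on cells with many UMIs. From the lowest to the highest tertile of UMIs per cell the Fosb ratio was 1.03, 0.584 and 0.330 in Mo/Mac cells, with 42 lenvatinib cells in the highest, and 0.777, 0.915 and 0.202 in neutrophils, with 81, and the interval held 1 in the lowest Mo/Mac and the middle neutrophil tertile. In B cells it was 411 and 468, a difference that turned when cells with other gate markers were allowed.

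Jun, Junb and Jund encode the JUN partners, of which JUND is the one known for steady expression in resting cells and JUN and JUNB for fast induction. All 3 were higher under combo in T, NK and B cells, and no setting tried turned any of these 9 directions. Jun went from 284 to 465 CPM in T cells (1.64, 1.57 to 1.70), from 381 to 561 in NK cells (1.47, 1.40 to 1.55) and from 374 to 492 in B cells (1.32, 1.17 to 1.48). Jund went from 1233 to 1826 in T cells (1.48, 1.45 to 1.51), from 1432 to 2155 in NK cells (interval 1.46 to 1.55) and from 2047 to 3062 in B cells (1.43 to 1.57). The Jund log2 ratio was 0.57, 0.59 and 0.58 in these types on the CPM scale, and 0.74, 0.72 and 1.01 relative to the median gene. Junb ratios were smaller, with 1909 and 2482 in T cells (1.30, 1.28 to 1.32), 2245 and 2688 in NK cells (1.20, 1.17 to 1.22) and 1299 and 1409 in B cells (1.08, 1.02 to 1.16). In pooled neutrophils Jun was at 480.3 and 286, Junb at 3505 and 2734, and Jund at 1064 and 767, all lower under combo. Relative to the median gene, however, Junb and Jund were higher by 0.18 and 0.06 on the log2 scale. The neutrophil Jun ratio was 1.17, 0.921 and 0.524 from the lowest to the highest tertile of UMIs per cell. Its interval held 1 in the lowest and the middle tertile, and the highest held 81 lenvatinib cells. Mo/Mac cells had 634 and 408 of Jun, 2021 and 1674 of Junb and 1168 and 829.5 of Jund. Over their tertiles, from the lowest, the ratio was 1.15, 0.673 and 0.639 for Jun and 0.620, 0.550 and 1.03 for Junb. The interval held 1 in the lowest tertile for Jun and in the highest for Junb. The Junb difference in Mo/Mac cells turned to 0.09 on the log2 scale when cells with other gate markers were allowed. Jund stood apart in its order over types: it was highest in B cells and lowest in neutrophils in both libraries, though under lenvatinib the neutrophil and dendritic intervals overlapped, and across the 12 values of type and library its Pearson correlation with the mean of the other 9 genes was -0.41, against 0.35 to 0.83 for the other genes. These 12 points share 2 libraries and their totals, and the correlation is a description only. Junb and Jund together made up 59.5% and 63.3% of the set's UMIs in lenvatinib and combo T cells, and 35.6% and 47.7% in neutrophils, so the sum is weighted to them.

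Atf3, a stress-induced ATF protein that can repress inflammatory genes, was low in lymphocytes and high in Mo/Mac cells, with a 29.5-fold span over types under lenvatinib and 10.5-fold under combo. It was higher under combo in every lymphocyte type, at 25.3 and 42.6 CPM in T cells (1.69, 1.48 to 1.91), 59.8 and 111 in NK cells (1.86, 1.64 to 2.11) and 36.2 and 90.6 in B cells (a log2 ratio of 1.32, ratio interval 1.80 to 3.50). Pooled dendritic cells had 171 and 218 (1.27, 1.07 to 1.52). From the lowest to the highest tertile of UMIs per cell their ratio was 1.15, 0.574 and 1.54. The interval held 1 in the lowest, and those of the others, 0.374 to 0.879 and 1.24 to 1.93, lay on opposite sides of 1. Finer dendritic gates also differed, at 0.634 (0.448 to 0.896) with Cd209a, 0.982 with Clec9a, 2.10 with Siglech and 2.12 with Ccr7. These gates share cells, and the Ccr7 gate held 24 and 27 cells. Atf3 was lower under combo in the phagocytes. It was 745 and 449 in Mo/Mac cells (0.602, 0.535 to 0.679) and 326 and 120.1 in neutrophils (0.368, 0.324 to 0.418). Within neutrophil tertiles of UMIs per cell the ratio was closer to 1, at 0.784, 0.616 and 0.442 from the lowest to the highest. After each cell was thinned to 2000 UMIs, 5.45% of lenvatinib and 13.6% of combo B cells held an Atf3 UMI (exact binomial intervals 3.59 to 7.88% and 10.9 to 16.7%), against 9.35% and 18.2% before thinning.

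Egr1 encodes a zinc finger factor induced by the ERK pathway and serum response factor. It was the gene with the largest differences: in neutrophils it was 2112 CPM under lenvatinib and 384 under combo (0.182, 0.171 to 0.193), and in Mo/Mac cells 430.1 and 77.6 (0.180, 0.145 to 0.223). In Mo/Mac cells the ratio was 0.184 and 0.148 in the middle and highest tertile of UMIs per cell but 0.677 in the lowest, with an interval of 0.390 to 1.19 that held 1. It was also lower under combo in NK cells, at 139.9 and 90.9 (0.650, 0.581 to 0.727), and in B cells, at 183 and 117 (0.638, 0.525 to 0.776). Egr1 thus ran against Jun, Jund and Atf3 in the same lymphocytes. In T cells it was 142 and 127 (0.899, 0.844 to 0.957), which turned to 0.02 on the log2 scale relative to the median gene. In pooled dendritic cells, at 73.0 and 93.2, it was not distinguished. Finer dendritic gates, which share cells, went opposite ways, at 0.520 (0.304 to 0.874) with Clec9a and 0.444 (0.207 to 0.920) with Cd209a. With Ccr7, in 24 and 27 cells, the Egr1 ratio was 3.77 (1.37 to 12.3), and with Siglech it was not distinguished. Thinned to 2000 UMIs, 73.6% of lenvatinib neutrophils (69.4 to 77.4%) and 39.4% of combo neutrophils (36.8 to 42.0%) held an Egr1 UMI, against 7.30% and 6.98% of dendritic cells, the lowest type. Before thinning the neutrophil shares were 76.2% and 54.3%, at median depths of 2516 and 4744 UMIs per cell, and those of dendritic cells 22.9% and 29.5% at 9088 and 11631.

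Nr4a1 encodes an orphan nuclear receptor known as a readout of antigen receptor signaling in lymphocytes. It was lower under combo in T cells, at 164 and 143 CPM (0.870, 0.820 to 0.923), in NK cells, at 302 and 264 (0.876, 0.818 to 0.939), and in B cells, at 277 and 226 (0.818, 0.705 to 0.950). Relative to the median gene the T cell log2 ratio was -0.02 and the B cell direction turned to 0.14. In NK cells the ratio was 1.26 (1.09 to 1.45) in the lowest tertile of UMIs per cell, the opposite direction, and 0.897 and 0.720 in the others. In neutrophils Nr4a1 was 769 and 239 (0.311, 0.285 to 0.338), while pooled Mo/Mac cells, at 465 and 443, were not distinguished. The Mo/Mac ratio was 0.715 (0.565 to 0.905) in the middle tertile of UMIs per cell and 1.40 (1.14 to 1.73) in the highest. It was 0.809 (0.701 to 0.933) without C1qa and 2.64 (1.46 to 4.87) in the 35 and 25 cells with 3 or more C1qa UMIs. Dusp1, the phosphatase that shuts off p38 and JNK, was highest in neutrophils in both libraries, at 2287 and 1235 (0.540, 0.517 to 0.565), and was 1185 and 683 in Mo/Mac cells (0.577, 0.525 to 0.635). Lymphocyte differences were small, with 437 and 456 in T cells, 435 and 395 in NK cells and 229.9 and 227 in B cells. The T and NK directions of Dusp1 each turned under 1 other setting. Ier2, a short nuclear protein of the early response, was 407 and 459 in T cells (1.13, 1.09 to 1.17) and was not distinguished in NK and B cells. In neutrophils it was 783 and 587 (0.750, 0.699 to 0.806), which turned to 0.12 on the log2 scale relative to the median gene.

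Depth moved with these levels. Within each type's tertiles of UMIs per cell, taken over both libraries, cells with few UMIs had higher summed levels than cells with many in T, NK, B cells and neutrophils. Lenvatinib neutrophils were shallow, with 415 of 681 in the lowest tertile, and combo neutrophils deep, with 635 of 1468 in the highest. In the lowest tertile the summed neutrophil level was 18687 under lenvatinib and 16046 under combo, in the middle one 14456 and 13299, and in the highest 5879 and 5043. The ratios of 0.859, 0.920 and 0.858 were all lower than 1 but far from the pooled 0.572. Within tertiles Egr1 stayed low in combo neutrophils, at 3553 and 1466, 2407 and 866, and 483 and 168 (ratios 0.348 to 0.413), as did Nr4a1 (0.444 to 0.591). Junb did not: its ratio was 1.01 to 1.29 in the 3 tertiles, against 0.780 pooled, and Fos was 0.937 to 1.17 and Dusp1 0.959 to 1.18. In all 3 tertiles 6 of the 10 genes were below 1 in neutrophils and 1, Junb, was above. In T cells the summed ratio was 1.24, 1.24 and 1.25 from the lowest to the highest tertile, with Jun, Jund, Junb, Fos, Atf3 and Ier2 above 1 and Egr1 and Nr4a1 below 1 in every tertile. In Mo/Mac cells it was 0.729, 0.558 and 0.763, with 42 lenvatinib cells in the highest tertile.

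**Figure D3:**
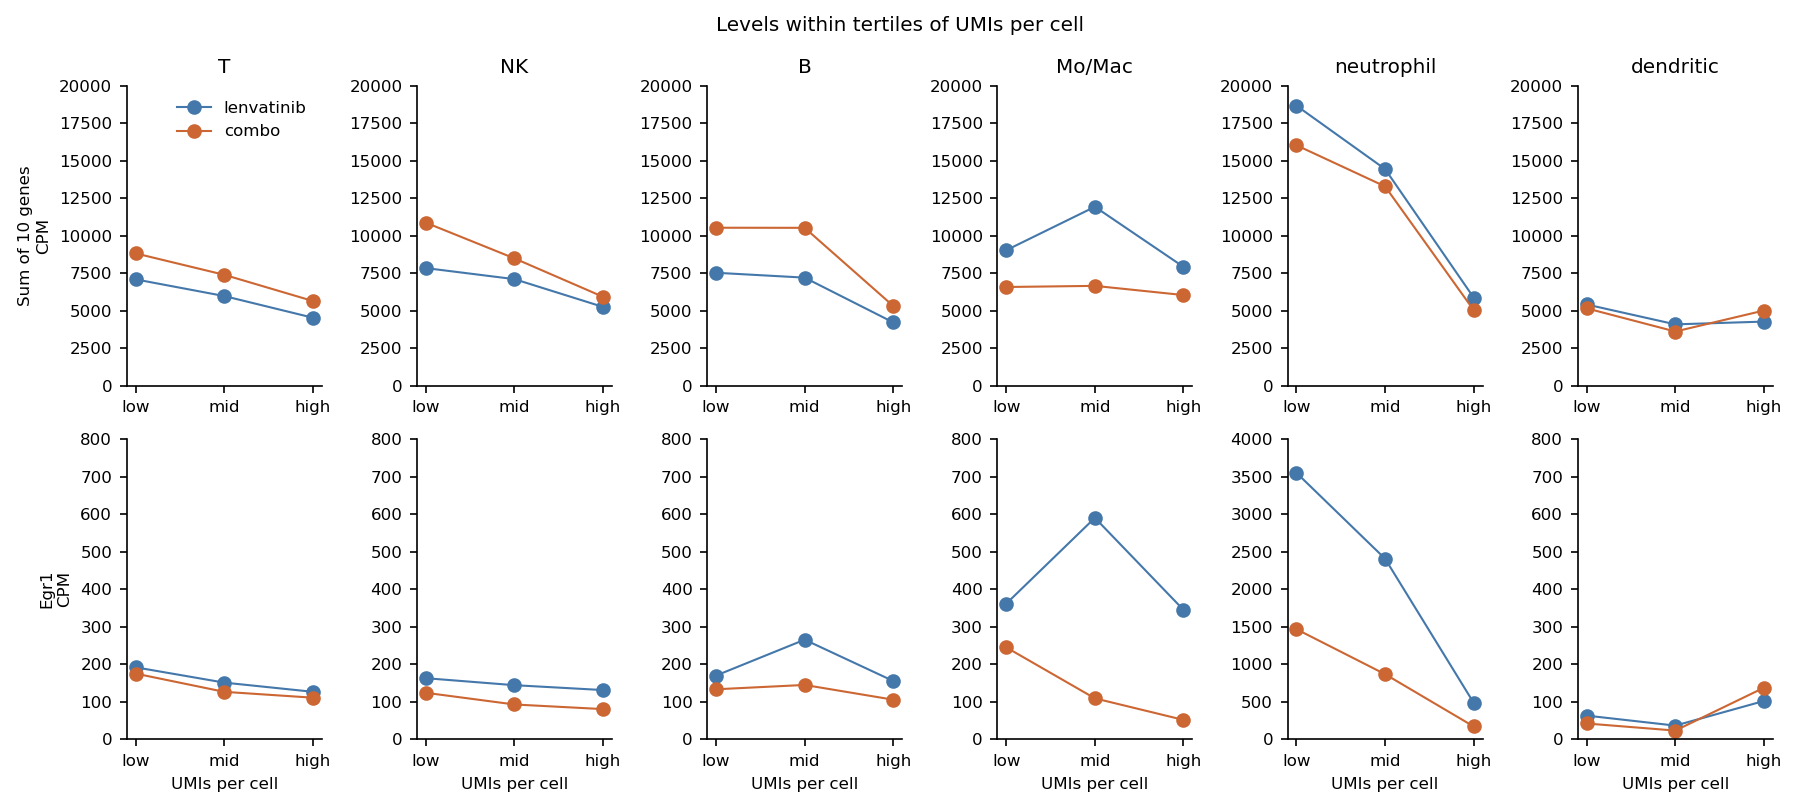
The upper row plots the summed level of the 10 genes and the lower row Egr1, in CPM, against the low, middle and high tertile of UMIs per cell of each type; lines join lenvatinib (blue) and combo (orange) values, and the Egr1 axis of neutrophils is taller. Summed neutrophil levels are near each other within a tertile, with ratios of 0.858 to 0.920, while neutrophil Egr1 is lower under combo in every tertile.

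The share of mitochondrial UMIs, which rises in damaged cells, did not order the levels in the same way. In T cells the summed level over bins of under 2.5%, 2.5 to 5%, 5 to 10% and 10 to 25% was 6007, 5134, 5361 and 5898 under lenvatinib and 6222, 6807, 6995 and 6849 under combo. Combo T cells were higher in each bin, least in the cleanest one, where the intervals of 5876 to 6141 and 6096 to 6349 overlapped. In neutrophils the bins were 12916, 11744, 15516 and 12048 under lenvatinib and 7114, 7943, 9128 and 8419 under combo, lower under combo in each. NK cells were higher in each bin, with overlapping intervals at 10 to 25%. B cells were higher in all but the bin under 2.5%, at 3504 and 3334 with overlapping intervals. Mo/Mac cells were lower in each, but at 10 to 25% they were at 5887 and 5854, with overlapping intervals and 47 and 158 cells. Dendritic bins went both ways, at 4340 and 3613, 4336 and 4421, 4604 and 5939, and 9033 and 3903. The last held 16 and 9 cells. The median mitochondrial share was 4.84% and 3.90% in T cells and 2.19% and 1.05% in neutrophils. If neutrophil RNA carried over in proportion to S100a8 and S100a9, it would make up 0.812% and 1.27% of the summed level in lenvatinib and combo T cells, 0.833% and 2.84% in NK cells, 0.684% and 4.36% in B cells and 0.545% and 2.56% in dendritic cells. The part of cell handling in any difference was not tested.

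Finer gates showed the direction within each type. Among T cells, those with Cd8a and no Cd4 had a summed level of 4594 under lenvatinib and 6092 under combo (1.33, 1.31 to 1.34). Those with Cd4 and no Cd8a had 6737 and 7836 (1.16, 1.13 to 1.20). Gamma-delta cells, gated on Trdc, were among the highest T cells in both libraries, at 7151 and 8400 (1.17, 1.14 to 1.21). CD8 cells with a UMI of Pdcd1, the gene of the PD-1 receptor, were lowest under lenvatinib, at 3817, and reached 5767 under combo (1.51, 1.46 to 1.56), with Jun at 137 and 324 (2.37, 2.00 to 2.80). CD8 cells without a Pdcd1 UMI went from 4707 to 6177 (1.31, 1.29 to 1.33). The gap between the 2 kinds of CD8 cell was therefore smaller under combo. Median depths in lenvatinib and combo were 5929 and 5247.5 UMIs per cell with Pdcd1, and 7133.5 and 5776 without. Finer gates were not compared within tertiles of UMIs per cell, and the part of depth in their differences was not tested. Foxp3 cells, at 6339 and 8345, were the T cells in which Egr1 was higher under combo, at 141 and 344 (2.43, 1.79 to 3.28), a value that rests on 57 combo cells. B cells with a UMI of Ighd, a marker of mature naive B cells, had 6721 and 9212, with Jund at 2529.9 and 4227, while B cells without one had 4209 and 5051. NK cells with Itga1, found on liver-resident innate cells, had 5739.9 and 6192, and those without it 6449 and 7973.

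**Figure D4:**
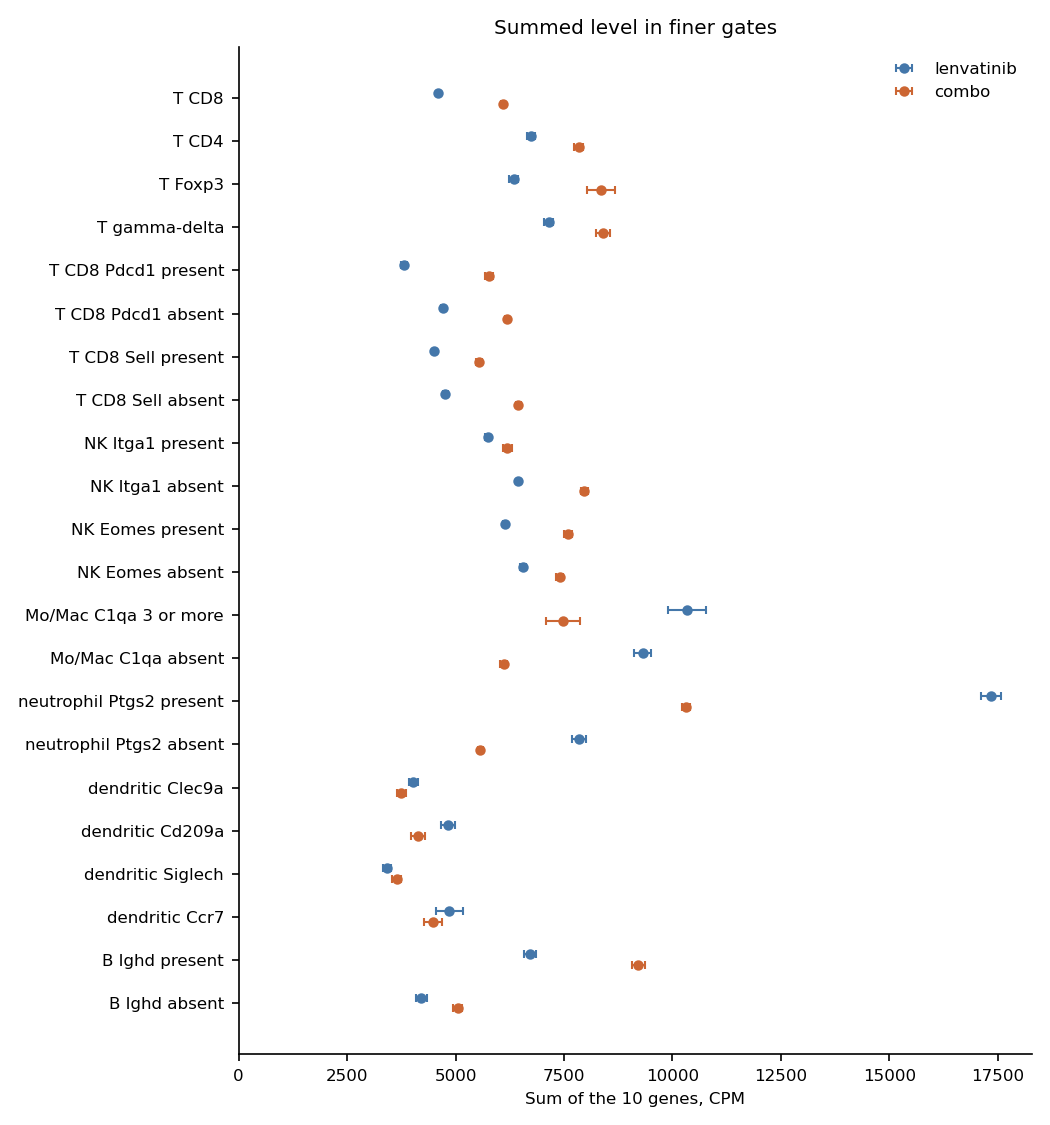
Each row is a finer gate of a cell type, and the x axis is the summed level of the 10 genes in CPM, with exact Poisson 95% intervals (counting error only) for lenvatinib (blue) and combo (orange). Neutrophils with Ptgs2 lie farthest right in both libraries, at 17342 and 10314.

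Among neutrophils, cells with a UMI of Ptgs2, the gene of cyclooxygenase 2 and itself an early response gene, held the highest summed level of any gate, at 17342 under lenvatinib and 10314 under combo. Neutrophils without it had 7848 and 5575. The ratios were 0.595 and 0.710, so the lower combo level was present on both sides of the split. In Ptgs2 cells Egr1 was 3278 and 678, and in the others 822 and 209.9. Their median depths were 2478 and 3814 UMIs per cell with Ptgs2, and 2757 and 6545 without. Mo/Mac cells with 3 or more UMIs of C1qa, a macrophage complement gene, had 10334 and 7479 in 35 and 25 cells, and those with none 9316 and 6109. Dendritic cells with Clec9a, the marker of type 1 conventional dendritic cells, had 4025 and 3751, those with Cd209a 4818 and 4133, and those with Siglech, the plasmacytoid marker, 3424 and 3639.6.

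Counts per cell, with every cell thinned to 2000 UMIs, showed how many of the genes were on together. A T cell held a median of 4 of the 10 genes under lenvatinib and 5 under combo, a B cell also 4 and 5, an NK cell 5 and 5, and a dendritic cell 4 and 4. The T cell medians were equal at both other depths, 3 and 3 at 1000 UMIs and 5 and 5 at 3000. The phagocyte medians were lower under combo, 6 and 5 in Mo/Mac cells and 7 and 5 in neutrophils, with 189 lenvatinib and 101 combo neutrophils too shallow to thin. At 1000 UMIs the medians were 5 and 4 in Mo/Mac cells and 6 and 4 in neutrophils. At 3000 UMIs the Mo/Mac medians were equal, at 7 and 7, and those of neutrophils were 7 and 6. That depth left out 448 of 681 lenvatinib and 338 of 1468 combo neutrophils, and 78 of 192 and 136 of 432 Mo/Mac cells. At least 5 genes were detected in 86.0% of lenvatinib and 67.8% of combo neutrophils, and in 47.8% and 52.1% of T cells. The genes were found together more than their separate shares would give: the variance of the number detected per cell was 1.46 and 1.49 times that of independent genes in T cells, 2.15 and 1.95 times in neutrophils, and 2.58 and 1.40 times in Mo/Mac cells. Neutrophils with an Egr1 UMI held on average 6.33 of the other 9 genes under lenvatinib and those without one 4.74, and under combo 5.70 and 4.58.

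**Figure D5:**
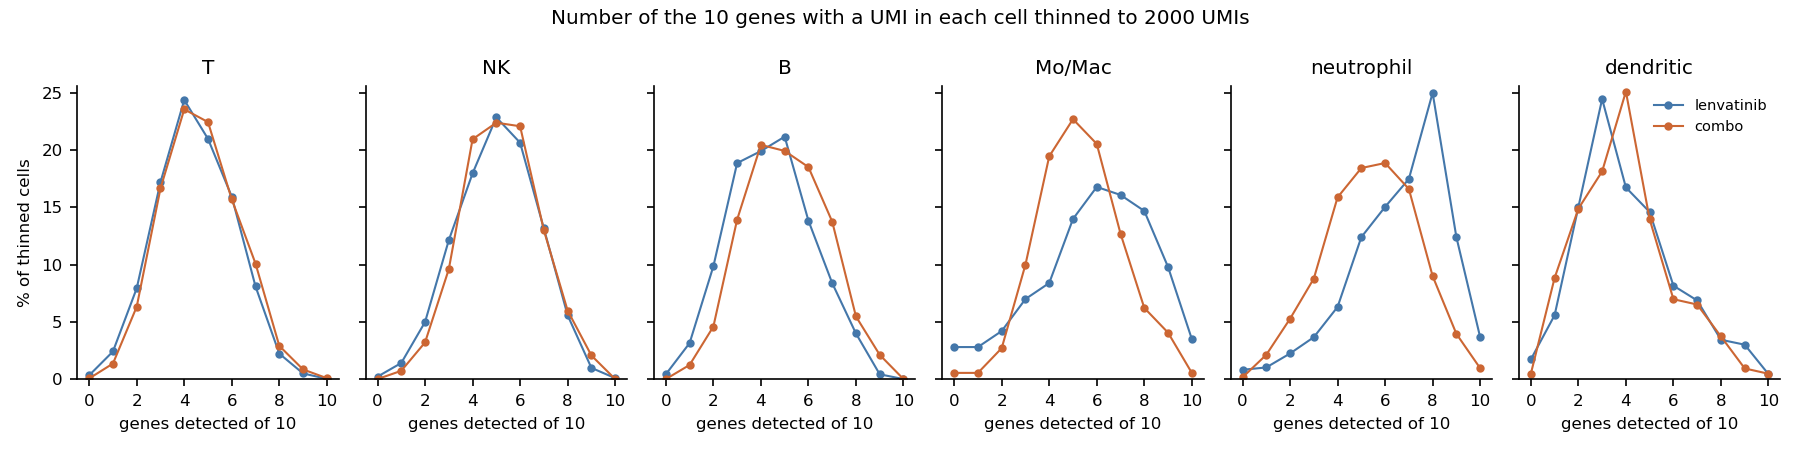
Each panel plots, for 1 gated type, the percent of cells (y axis) in which a given number of the 10 genes had a UMI (x axis) after thinning to 2000 UMIs, for lenvatinib (blue) and combo (orange). Lenvatinib neutrophils, with a median of 7 genes, are shifted right of combo neutrophils, with a median of 5.

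Other genes of the pathway were read from lists, whose counts and medians stand beside those of all genes tested, given above for each type. All list values are pooled over cells of every depth, and list genes were not compared within tertiles of UMIs per cell. In neutrophils the summed ratio of the members was 0.572 pooled and 0.858 to 0.920 within tertiles. Any part of depth in the neutrophil differences of this and the later lists was not tested. Of 26 other early response genes, 24 were tested in T cells with none 2-fold higher or lower and a median log2 ratio of 0.08, against -0.18 for all genes. In NK cells all 26 were tested, with 1 higher, Ier3 at 22.0 and 46.8 CPM, none lower and a median of -0.04 against -0.13. In neutrophils 18 of 26 were at least 2-fold lower, against 18.2% of all genes, with a median of -1.10 against -0.53 for all genes, and in Mo/Mac cells 6 of 26 were lower, against 7.77%, with a median of -0.48 against -0.16. The neutrophil list was led by Egr2, at 40.5 and 4.71 (0.116, 0.0705 to 0.190), and Egr3, at 162 and 21.6 (0.134, 0.106 to 0.169), which are EGR1's close relatives, and the same 2 genes were lowest in Mo/Mac cells, at 20.2 and 4.55 and at 17.6 and 3.03. In B cells 1 of 25 was higher, Socs3, a cytokine feedback inhibitor, at 35.8 and 85.8, and 1 lower, Nr4a3. In dendritic cells 1 of 24 was higher, Ppp1r15a, a stress response phosphatase subunit, at 169.7 and 344, and 1 lower, Nr4a3.

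Nr4a3, a relative of Nr4a1, and Zfp36, an RNA-binding protein that destabilizes cytokine messages, were lower under combo in all 6 types, and this pair was chosen after the values were seen. Nr4a3 had ratios of 0.639 in T, 0.597 in NK, 0.437 in B, 0.464 in Mo/Mac, 0.207 in neutrophil and 0.435 in dendritic cells. Zfp36 had ratios of 0.624, 0.597, 0.709, 0.494, 0.451 and 0.593 in the same order. Nr4a2 was 394 and 232 CPM in NK cells (0.587, 0.548 to 0.629), a larger difference than that of Nr4a1. By contrast Klf2, a factor of lymphocyte quiescence and recirculation that is also inducible, was higher in T cells, at 652 and 992 (1.52, 1.49 to 1.56), and in NK cells, at 591 and 1136 (1.92, 1.85 to 2.00). Among these named genes of T and NK cells, Jun, Jund, Atf3 and Klf2 were higher and Nr4a3 and Zfp36 lower. Klf2, Nr4a3 and Zfp36 were named for their values, so their split is no result about the list. Of the other early response genes tested, 54.2% in T and 50% in NK cells had a ratio above 1. The shares of all genes tested were 30.8% and 35.8%.

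Of the 16 other AP-1 and bZIP genes, 10 were tested in T cells and 11 in NK cells, with none 2-fold different in either and medians of -0.13 and -0.08. The AP-1 partner Batf, needed for T cell effector programs, was 32.4 and 45.1 CPM in T cells (1.39, 1.24 to 1.57), and Maf was lower, at 169.8 and 118. In B cells 2 of 10 were lower, Maf and Atf2, against 11.9% of all genes, and in Mo/Mac cells 1 of 13, Maf, against 7.77%. In neutrophils 2 of 12 were higher, against 1.62%, and 3 lower, against 18.2%. The list medians were -0.28 in B, -0.24 in Mo/Mac and -0.51 in neutrophils, against -0.43, -0.16 and -0.53 for all genes. The higher ones included Fosl1, the gene of the FOS relative FRA1, at 15.1 and 49.4 CPM (3.27, 2.16 to 5.12). The lower ones included Maf, at 60.4 and 10.4. In dendritic cells 1 of 11 was higher, Jdp2, an AP-1 repressor, at 9.27 and 29.7, and 1 lower, Bach2, with a median of 0.13 against -0.08.

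The MAPK phosphatases other than Dusp1 showed no 2-fold difference in T (5 tested of 8), NK (4), Mo/Mac (5) or dendritic cells (5). Dusp2, the nuclear ERK phosphatase, was 287 and 428 CPM in T cells (1.49, 1.44 to 1.55) and 403 and 506 in NK cells. In neutrophils 4 of 5 were lower, including Dusp5, at 497 and 185, and Dusp6, at 133 and 53.0, and in B cells 1 of 6, Dusp6, against 18.2% and 11.9% of all genes. The list medians were -0.14 in T, -0.08 in NK, -0.19 in B, -0.40 in Mo/Mac, -1.28 in neutrophil and 0.12 in dendritic cells. Upstream kinases and promoter factors had no 2-fold difference in T, NK, Mo/Mac or dendritic cells (14 tested of 15 in each), but their median was below that of all genes in T (-0.34 against -0.18) and NK cells (-0.39 against -0.13). It was -0.55 in B, -0.04 in Mo/Mac, -0.79 in neutrophil and -0.28 in dendritic cells. In T cells Crem, which makes an inducible cyclic AMP repressor, was higher, at 67.9 and 112 (1.65, 1.53 to 1.79). In B cells 1 of 14 was lower, Elk3, against 11.9% of all genes, and in neutrophils 5 of 13 were, against 18.2%, including Creb1, at 86.2 and 37.0.

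Heat shock genes also respond to dissociation. The list medians were -0.11 in T, 0.03 in NK, -0.45 in B, -0.42 in Mo/Mac, -0.87 in neutrophil and -0.08 in dendritic cells, against -0.18, -0.13, -0.43, -0.16, -0.53 and -0.08 for all genes. The inducible HSP70 genes Hspa1a and Hspa1b were at least 2-fold lower under combo in B, Mo/Mac, neutrophil and dendritic cells, with Hspa1b at 93.9 and 31.4 CPM in B, 142 and 32.1 in Mo/Mac, 44.8 and 9.14 in neutrophil and 137 and 29.4 in dendritic cells. In NK cells they were higher, with Hspa1a at 31.4 and 56.9 (1.81, 1.52 to 2.16), and Hspa1a was higher in T cells, at 29.1 and 39.0 (1.34, 1.18 to 1.52). Counts of the list at least 2-fold lower were 0 of 13 in T, 0 of 12 in NK, 2 of 12 in B, 2 of 13 in Mo/Mac, 4 of 12 in neutrophil and 3 of 12 in dendritic cells, against 1.58%, 1.16%, 11.9%, 7.77%, 18.2% and 2.76% of all genes, and none was 2-fold higher in any type. The direction of the HSP70 genes thus differed between types. Of the T cell activation genes, 15 were tested in T cells, with 1 at least 2-fold higher, Cd40lg, the CD40 ligand, at 18.6 and 39.0 (2.09, 1.82 to 2.41), none lower and a median of -0.22 against -0.18. Il2ra, the high-affinity IL-2 receptor chain, was 52.6 and 31.9. In NK cells 1 of 12 was higher, Bcl2a1b, a survival gene, at 99.8 and 240.5. In neutrophils 9 of 10 genes of that list were lower, against 18.2% of all genes, led by the chemokines Ccl4, at 1959 and 383, and Ccl3, at 1598 and 337. The list was lower by 2-fold for 7 of 12 in Mo/Mac, 2 of 11 in B and 2 of 9 in dendritic cells, against 7.77%, 11.9% and 2.76%. Its medians were 0.01 in NK, -0.77 in B, -1.44 in Mo/Mac, -1.71 in neutrophil and -0.47 in dendritic cells. In Mo/Mac cells Il2ra, at 20.2 and 1.52, and Icos, at 29.9 and 4.85, had the smallest ratios. The NK marker list summed to 466 and 97.9 CPM in Mo/Mac cells and to 349 and 68.9 in neutrophils. The T marker list summed to 216 and 129 in Mo/Mac cells and to 268 and 127 in neutrophils. The part of lymphocyte RNA, or of UMIs per cell, in these phagocyte differences was not tested.

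Across the 12 values of type and library, on the log2(CPM + 10) scale, the 5 genes of 7811 whose profile was most like the mean of the 10 were Tlr4 (Pearson r 0.93), Clec4n (0.91), Slc40a1 (0.90), Wsb2 (0.89) and Olr1 (0.89). Tlr4, the endotoxin receptor, ranged from 0.390 to 38.4 CPM and Clec4n, a C-type lectin receptor, from 0.889 to 304. These 12 values share 2 libraries, and the r is descriptive.

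By GENCODE the 10 genes are protein coding. Fos lies at chr12:85473890-85477273 on the plus strand of mm10, Jun at chr4:95049034-95052222, Junb at chr8:84974484-84978718 and Ier2 at chr8:84661331-84662852, all 3 on the minus strand, and Jund at chr8:70698949-70700616 on the plus strand. Junb overlaps Prdx2 and Dusp1 overlaps Ergic1, each on the opposite strand, and Dusp1 overlaps other transcripts on its own strand. How reads in the same-strand stretches were assigned was not tested.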

How the data were processed

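The authors deposited raw UMI count matrices for both libraries, made with the 10x Genomics 3′ v3 kit and aligned to mm10. The submitters' processing notes name Cell Ranger 5.0.1, and the matrix headers name 6.0.1. Counts were used as deposited, and 3′ tags were not divided by gene length. Cells with at most 6000 genes and at most 25% mitochondrial UMIs were kept (308 lenvatinib and 376 combo cells were removed), gated on exactly 1 of 6 markers, and summed to CPM. Cells with several gate markers were set aside, which removes many mixed doublets. Scrublet, run in scanpy 1.11.5, called 4.46% and 2.76% of cells, left out only as an alternative. The ends of 2 exact Poisson 95% intervals were set against each other for each ratio. Genes with a mean CPM of at least 10 over both libraries entered the 2-fold counts. On simulated counts for 200 genes changed 4-fold, the rule recovered 100% in T cells (7520 genes tested) and 100% in Mo/Mac cells (7769 genes tested), where it also called 1.84% of unchanged genes. In neutrophils it recovered 100% and called 0.383% of unchanged genes. Both simulated libraries had like depth and counting noise only, and 4-fold lies well past the 2-fold rule. The recovery therefore tells nothing about changes near 2-fold, unequal depth or variation between libraries. Besides all 10 members, genes were named from the 2 with the largest and the 2 with the smallest ratio of each list in each type, not all of which are printed. Nr4a3 and Zfp36 were followed through every type after their values were seen. Alternatives changed the cell filter, gate, doublets, CPM total, scaling, cell weights, fold, low-value filter and thinning depth. Scripts used Python 3.11.15, numpy 2.4.6 and scipy 1.17.1. The members and lists were chosen with earlier results of these data known.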

Additional observations from a re-analysis of the deposited data

Results flagged for a closer look

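The summed level of the 10 genes moved opposite ways in T cells and neutrophils. The ratio of combo to lenvatinib was 1.29 in T cells and 0.572 in neutrophils. With 1 library per group the difference between the types was not tested. The neutrophil ratio lay between 0.858 and 0.920 within tertiles of UMIs per cell, and the T cell ratio between 1.24 and 1.25.

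Cells that held UMIs of several gate markers entered no comparison by type. Their summed level was 6359.6 CPM under combo in 2667 cells, against 6019 under lenvatinib in 2327 cells. Doublets were called in 9.79% and 14.5% of them.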

How the results depend on the processing

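No reanalysis without a replicate and no paired analysis was possible because there was 1 library per group. No summed ratio past counting error turned direction under the alternatives run; the dendritic ratio of 1.02, within counting error of 1, fell below 1 with other markers allowed (0.998), as a mean of each cell's own CPM and within UMI tertiles (0.996). Values that moved were as follows, and the cause was not tested except where stated. With every cell holding the marker, other markers allowed, the ratios were 1.23 in T, 1.16 in NK, 1.14 in B, 0.839 in Mo/Mac and 0.782 in neutrophils. With at least 2 marker UMIs they were 1.31 in T, 1.30 in B, 0.545 in neutrophils and 1.12 in dendritic cells. With libraries scaled to the median gene they were 1.46 in T, 1.32 in NK, 1.70 in B, 0.738 in Mo/Mac, 0.828 in neutrophils and 1.07 in dendritic cells. With mitochondrial, ribosomal protein and hemoglobin genes out of the total they were 1.36 in T, 1.24 in NK, 0.552 in neutrophils and 1.06 in dendritic cells. As means of each cell's own CPM they were 1.28 in NK, 1.38 in B, 0.670 in neutrophils and 0.957 in dendritic cells. No cell filter gave 0.606 in neutrophils, a mitochondrial limit of 10% gave 0.638 and removal of called doublets 0.698 in Mo/Mac cells. After the data were seen, ratios within UMI tertiles were added, at 1.24 in T, 1.23 in NK, 1.37 in B and 0.878 in neutrophils, as was the total without neutrophil genes, at 0.694 in neutrophils. The 1 pair at least 2-fold higher became 0 with other markers allowed, 3 with median scaling and 5 at 1.5-fold, as a lower threshold must give. The 6 pairs lower became 2 with other markers allowed and 14 at 1.5-fold. Thinned to 1000 UMIs, the median combo T cell held 3 genes in place of 5, as fewer UMIs must give, and the 2 libraries' T cell medians were equal there (3) and at 3000 UMIs (5). Depth limits the 192 lenvatinib Mo/Mac cells and the low genes Atf3, Egr2 and Egr3.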

Other observations

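Cells without any gate marker, 2535 under lenvatinib and 1449 under combo, had summed levels of 6945 and 6562 CPM (0.945, 0.929 to 0.961), with Egr1 at 265 and 153 and Atf3 at 101 and 139. Over all kept cells the sum was 6024 and 6673 (1.11, 1.10 to 1.11), Egr1 was 235 and 158, and Fosb 388 and 307. The pooled Fos level, 446 and 608, had a ratio of 1.36, larger than in any gated type but B, and the share of neutrophils among kept cells was 4.80% and 12.6%.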
